A study of Homo sapiens with 402 samples.

Results

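The genes described here supply the cell with proteasomes and ubiquitin. They are 43 genes fixed as a list of names: 14 subunits of the 20S core, 17 subunits of the 19S regulatory particle, 5 assembly factors, the activator PSME4, the polyubiquitin gene UBB, 3 genes of the p97 complex, ZFAND2A and NFE2L1. All 43 were listed among the 34718 gene symbols of 4 plates and the 15081 symbols of the DDE plate, and all 43 passed the filter on low counts in every comparison. They were followed in MCF10A, a non-tumorigenic human breast epithelial line, exposed for 48 h. There were 21 chemicals and 4 doses, 0.025, 0.25, 2.5 and 25 µM, each dose group being set against the controls of its own plate, or for DDE against controls matched by barcode.

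The proteasome degrades proteins that carry ubiquitin chains. Its 20S core is a barrel of PSMA and PSMB rings with the proteolytic sites inside. The 19S particle at its ends recognises ubiquitin, unfolds the substrate with a ring of PSMC ATPases and removes the chain with PSMD14. Chaperones of the PSMG group and POMP build the core, and the VCP ATPase with its cofactors NPLOC4 and UFD1 pulls ubiquitinated proteins out of membranes and complexes. NFE2L1 is the transcription factor known to raise subunit genes when proteasome activity falls short, and ZFAND2A, also called AIRAP, is a proteasome-associated protein known for its induction by arsenite.

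NFE2L1 binds antioxidant response elements, so promoter windows were searched for that core, TGACNNNGC, and for the NF-Y box CCAAT, on both strands. RefSeq windows of GRCh38.p14, from 250 bases before to 50 bases after a start site, were given for 36 of the 43 members. No window was given for PSMA7, PSMB1, PSMB6, PSMB7, PSMD4, PSMG3 and UFD1. TGACNNNGC was in 14 of 46 member windows (30.4%), belonging to 13 members, and in 13.3% of all 35116 windows. CCAAT was in 47.8% of member windows and in 34.6% of all windows. The heat shock element was in 0 of the 46 member windows and in 0.49% of all windows. Windows of NFE2L1, ZFAND2A and UBB are shown. ZFAND2A moved furthest, NFE2L1 is known to act upstream and UBB is the ubiquitin gene of the list. Also shown are the first 5 subunits, in alphabetical order, with a TGACNNNGC match before the start site. Capitals mark the match, and a match is a description of the letters only.

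ZFAND2A (chr7:1160375-1160433, minus strand): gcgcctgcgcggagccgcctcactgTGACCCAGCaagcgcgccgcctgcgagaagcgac
UBB (chr17:16381301-16381329, plus strand): gagggcgaggTGACGCGGCgctgggcctt
PSMA4 (chr15:78540635-78540693, plus strand): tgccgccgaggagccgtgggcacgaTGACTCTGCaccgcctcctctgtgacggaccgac
PSMB3 (chr17:38752612-38752670, plus strand): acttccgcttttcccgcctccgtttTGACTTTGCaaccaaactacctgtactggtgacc
PSMC5 (chr17:63827654-63827682, plus strand): gaccggatctGCTGTGTCAgcgccgccct
PSMD12 (chr17:67366709-67366767, minus strand): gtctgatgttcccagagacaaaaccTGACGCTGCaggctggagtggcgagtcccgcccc
PSMD3 (chr17:39980745-39980803, plus strand): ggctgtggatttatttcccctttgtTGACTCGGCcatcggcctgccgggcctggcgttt
NFE2L1 (chr17:48048109-48048149, plus strand): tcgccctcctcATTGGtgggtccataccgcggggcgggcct

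The match in PSMC5 is TGACNNNGC read on the opposite strand, and the match in NFE2L1 is CCAAT read on the opposite strand. Members with a TGACNNNGC match and members without it were both found among the genes that rose. With arsenic at 25 µM, 9 of the 13 members with a match were higher and 2 lower (median log2 fold change 0.47). Of the 23 members with a window and no match, 14 were higher and 6 lower (median 0.29). With cadmium 5 members with a match were higher and 0 lower (median 0.36), and 8 without it were higher and 0 lower (median 0.28). With thiram 6 with a match were higher and 3 lower (median 0.20), and 11 without it were higher and 2 lower (median 0.22).

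The 402 libraries came from 5 plates, and 401 were analysed. Arsenic, cadmium, copper, lead and mercury shared a plate with 15 water controls. BPA, BPF, BPS, MPB and PPB shared a plate with 15 DMSO controls, and DCB_14, DCP_25, PCB153, PCB187 and thiram another with 15 DMSO controls. PFDA, PFNA, PFOS and phenanthrene were set against 12 DMSO controls and PFOA against 4 water controls of the same plate. DDE, labelled as given in DMSO, was set against the 8 controls that carry its plate barcode. The labels of these controls say water and name another plate than those of DDE. A dosed group had 4 wells, except MPB and PPB at 0.025 µM with 3. Cadmium at 25 µM had 2, since a library with the barcode of the thiram plate was set aside. The labels call the wells of a dose biological replicates, but all cells were of the same passage, so p-values measure the spread between wells.

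Depth ranged from 1.43 M to 25.8 M counts per library over the 5 plates. At 25 µM it was 7.27 M to 12 M for arsenic, 1.43 M and 1.45 M for cadmium and 2.46 M to 6.29 M for thiram. Within a plate the low-numbered and high-numbered libraries differed in depth, with control medians of 20.9 M and 3.17 M on the metal plate and 17.9 M and 3.18 M on the thiram plate. CPM below are read counts scaled to the effective library size of each library. In the controls of the 4 larger plates the basal epithelial keratin KRT5 was at 703 to 1510 CPM, while the hormone receptor gene PGR and the T cell gene CD3E were at 0 counts. Of the same list of 8 basal epithelial markers, KRT6A was at 742 to 2010 CPM, KRT17 at 77.1 to 554 CPM and EGFR at 140 to 312 CPM. The rest of that list was lower, KRT14 at 2.22 to 154 CPM, EPCAM at 4.22 to 76.5 CPM, CDH1 at 2 to 53.7 CPM and TP63 at 0.27 to 26.1 CPM. Other markers of luminal cells were present there, GATA3 at 0.606 to 31.3 CPM, FOXA1 at 0.333 to 21.4 CPM and ESR1 at up to 1.53 CPM. The immune markers CD68 and PTPRC reached 1.16 and 0.392 CPM. The sum of these 8 basal epithelial markers was 1440 to 2100 CPM with arsenic at 25 µM and 3400 to 4080 CPM in its controls. It was 4510 and 4990 CPM with cadmium, and 2380 to 3320 CPM with thiram against 2370 to 3680 CPM. The sum of 4 markers of hormone-responsive luminal cells was 49.5 to 57.2 CPM with arsenic and 14.1 to 46.1 CPM in its controls, 0 and 8.4 CPM with cadmium, and 46.4 to 68.4 CPM with thiram against 4.24 to 40.6 CPM. The part of these shifts in the results below was not tested.

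With arsenic at 25 µM, 27 of the 43 members were higher and 9 lower, by the edgeR quasi-likelihood test at a Benjamini-Hochberg adjusted p under 0.05. Of all genes tested, 23.2% were higher and 18.2% lower. Among well-expressed genes, those whose log2 CPM averaged 4 or more, which include 41 of the members, 26.9% were higher and 42.9% lower. The median log2 fold change was 0.38 over the members and 0.00 over all genes. By role, most 19S subunits, UBB, the p97 genes, ZFAND2A and NFE2L1 were higher, the 20S rings were split, and 3 of the 4 PSMG chaperones were lower. In bulk RNA, fewer cells and less RNA per cell cannot be told apart. Overlap of dosed wells with controls is given here and below as a description of single genes. The share of all genes without such overlap was not worked out, so how common it is cannot be said.

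**Figure D1:**
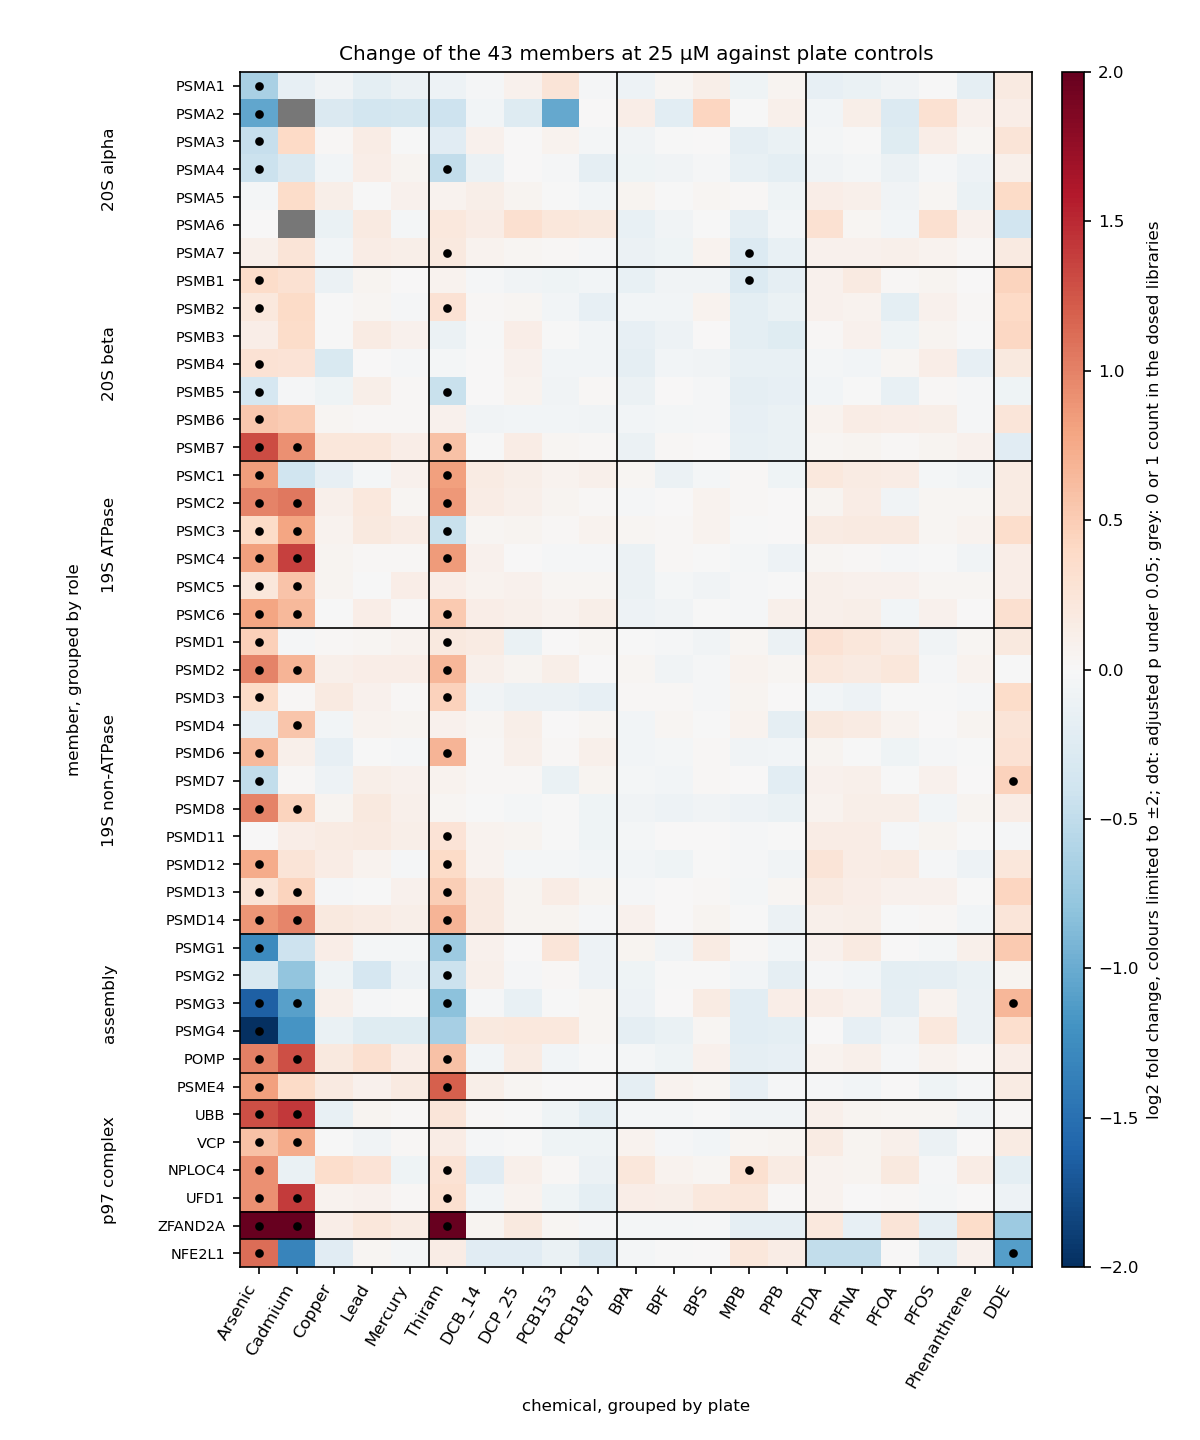
Log2 fold change of each of the 43 members (rows, by role) at 25 µM of each of 21 chemicals (columns, by plate) against plate controls, with red higher, blue lower, colours limited to ±2 and a dot for an adjusted p under 0.05. Dots fill the columns of arsenic (36 members), thiram (26) and cadmium (17), and are sparse elsewhere. Grey cells mark PSMA2 and PSMA6 in cadmium, which had 0 or 1 count.

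ZFAND2A moved furthest of the members with arsenic. It stood at 214, 216, 228 and 248 CPM in the 4 arsenic wells and at 0.315 to 10.5 CPM (median 7.95) in the 15 controls, a 29.9-fold rise (log2 fold change 4.9 with a standard error of 0.19, adjusted p = 1.2e-41). No arsenic well came near the controls. UBB, which encodes a chain of ubiquitin repeats, was at 232, 261, 283 and 290 CPM against 74.7 to 143 CPM (1.28 ± 0.12, adjusted p = 3.3e-16; log2 fold change ± SE here and below), again without overlap. NFE2L1 was at 92.6, 106, 118 and 161 CPM against 37.5 to 68.6 CPM (1.12 ± 0.13, adjusted p = 6.7e-12), also without overlap.

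All 6 ATPases of the 19S ring were higher with arsenic, with a median log2 fold change of 0.81. PSMC2 was at 195, 206, 210 and 247 CPM against 84.6 to 142 CPM in controls (1.0 ± 0.10, adjusted p = 3.5e-15), PSMC1 at 126, 128, 132 and 144 CPM against 62.4 to 90.1 CPM (0.84 ± 0.10, adjusted p = 5.7e-12) and PSMC4 at 214, 247, 249 and 250 CPM against 113 to 186 CPM (0.82 ± 0.09, adjusted p = 1.9e-13). In these 3 genes every arsenic well lay above every control. PSMC5 had the smallest rise of the ring, at 180, 200, 217 and 219 CPM against 127 to 196 CPM (0.23 ± 0.08, adjusted p = 0.013), and its groups overlapped.

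Of the 11 other 19S subunits, 8 were higher and 1 lower. PSMD8, a subunit of the 19S lid, was at 538, 570, 573 and 586 CPM against 197 to 334 CPM (1.0 ± 0.08, adjusted p = 9.4e-21). PSMD2, a scaffold of the 19S base that binds ubiquitin shuttles, was at 866, 968, 1020 and 1060 CPM against 458 to 542 CPM (0.99 ± 0.08, adjusted p = 1.7e-19). Neither gene's groups overlapped. The lid subunit PSMD13 rose least of those called, at 195, 208, 213 and 236 CPM against 136 to 198 CPM (0.26 ± 0.07, adjusted p = 0.0017). PSMD7, the structural partner of the deubiquitinase PSMD14, went the other way, at 71.7, 71.9, 74 and 76.2 CPM against 89.6 to 124 CPM (-0.49 ± 0.09, adjusted p = 2.7e-06), below every control.

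The 20S core did not move as a block with arsenic: 5 of 14 subunits were higher and 5 lower. In the outer alpha ring 0 of 7 were higher and 4 were lower, and in the beta ring 5 of 7 were higher and 1 was lower. PSMB7, which carries the trypsin-like site, was at 475, 502, 559 and 574 CPM against 146 to 262 CPM (1.3 ± 0.08, adjusted p = 3.6e-26), and no well overlapped the controls. PSMB6, with the caspase-like site, was at 315, 372, 395 and 425 CPM against 172 to 315 CPM (0.54 ± 0.11, adjusted p = 2.9e-05). PSMB1, a beta subunit without a proteolytic site, was at 361, 445, 497 and 514 CPM against 272 to 402 CPM (0.37 ± 0.11, adjusted p = 0.0052), with overlap. PSMB5, with the chymotrypsin-like site, was lower, at 309, 322, 340 and 392 CPM against 367 to 504 CPM (-0.33 ± 0.08, adjusted p = 4.6e-04).

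On the alpha side, PSMA1 was at 40.8, 41.7, 45.9 and 50.4 CPM with arsenic against 52.9 to 93.1 CPM (-0.65 ± 0.10, adjusted p = 5.1e-08), below every control. PSMA3 was at 147, 169, 211 and 219 CPM against 200 to 298 CPM (-0.45 ± 0.12, adjusted p = 0.0011) and overlapped them. PSMA2 was low in all wells, at 2.68, 3.27, 4.19 and 4.55 CPM against 4.07 to 10.6 CPM (-1.04 ± 0.33, adjusted p = 0.0064), and its call held in 10 of 13 alternatives.

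Assembly factors moved in both directions. POMP, which guides assembly of the beta ring, was at 262, 275, 362 and 388 CPM with arsenic against 101 to 223 CPM (1.01 ± 0.11, adjusted p = 3.1e-13), above every control. PSMG1, PSMG3 and PSMG4, chaperones of the alpha ring, were lower. PSMG3 was at 17.7, 19.4, 19.8 and 21 CPM against 40.3 to 73.1 CPM (-1.64 ± 0.14, adjusted p = 4.9e-19), PSMG1 at 28.7, 34.8, 38.1 and 42.3 CPM against 68.3 to 109 CPM (-1.27 ± 0.12, adjusted p = 1.4e-15) and PSMG4 at 2.03, 4.71, 5.68 and 10.3 CPM against 12.5 to 34.8 CPM (-2.2 ± 0.25, adjusted p = 1.9e-12). For all 3 the arsenic wells lay below every control. PSMG2 did not pass the test (-0.30 ± 0.13, adjusted p = 0.061). The activator PSME4, also called PA200, was at 47.5, 52.2, 75 and 90.9 CPM against 27.9 to 60.3 CPM (0.82 ± 0.14, adjusted p = 8.5e-07), with overlap.

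All 3 p97 genes were higher with arsenic. VCP was at 877, 890, 910 and 1090 CPM against 543 to 733 CPM (0.59 ± 0.09, adjusted p = 9.5e-09). Its cofactor UFD1 was at 118, 139, 145 and 157 CPM against 41.3 to 97.7 CPM (0.92 ± 0.11, adjusted p = 7.3e-12) and NPLOC4 at 163, 182, 191 and 249 CPM against 88.2 to 147 CPM (0.91 ± 0.14, adjusted p = 2.0e-08). None of the 3 overlapped its controls. Of the 36 arsenic calls, 27 held in all 13 alternatives. Within the low-numbered libraries alone 29 members were higher and 8 lower, and within the high-numbered libraries alone 25 were higher and 7 lower. Within those sets PSMG4 changed by -2.81 and -1.18.

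**Figure D2:**
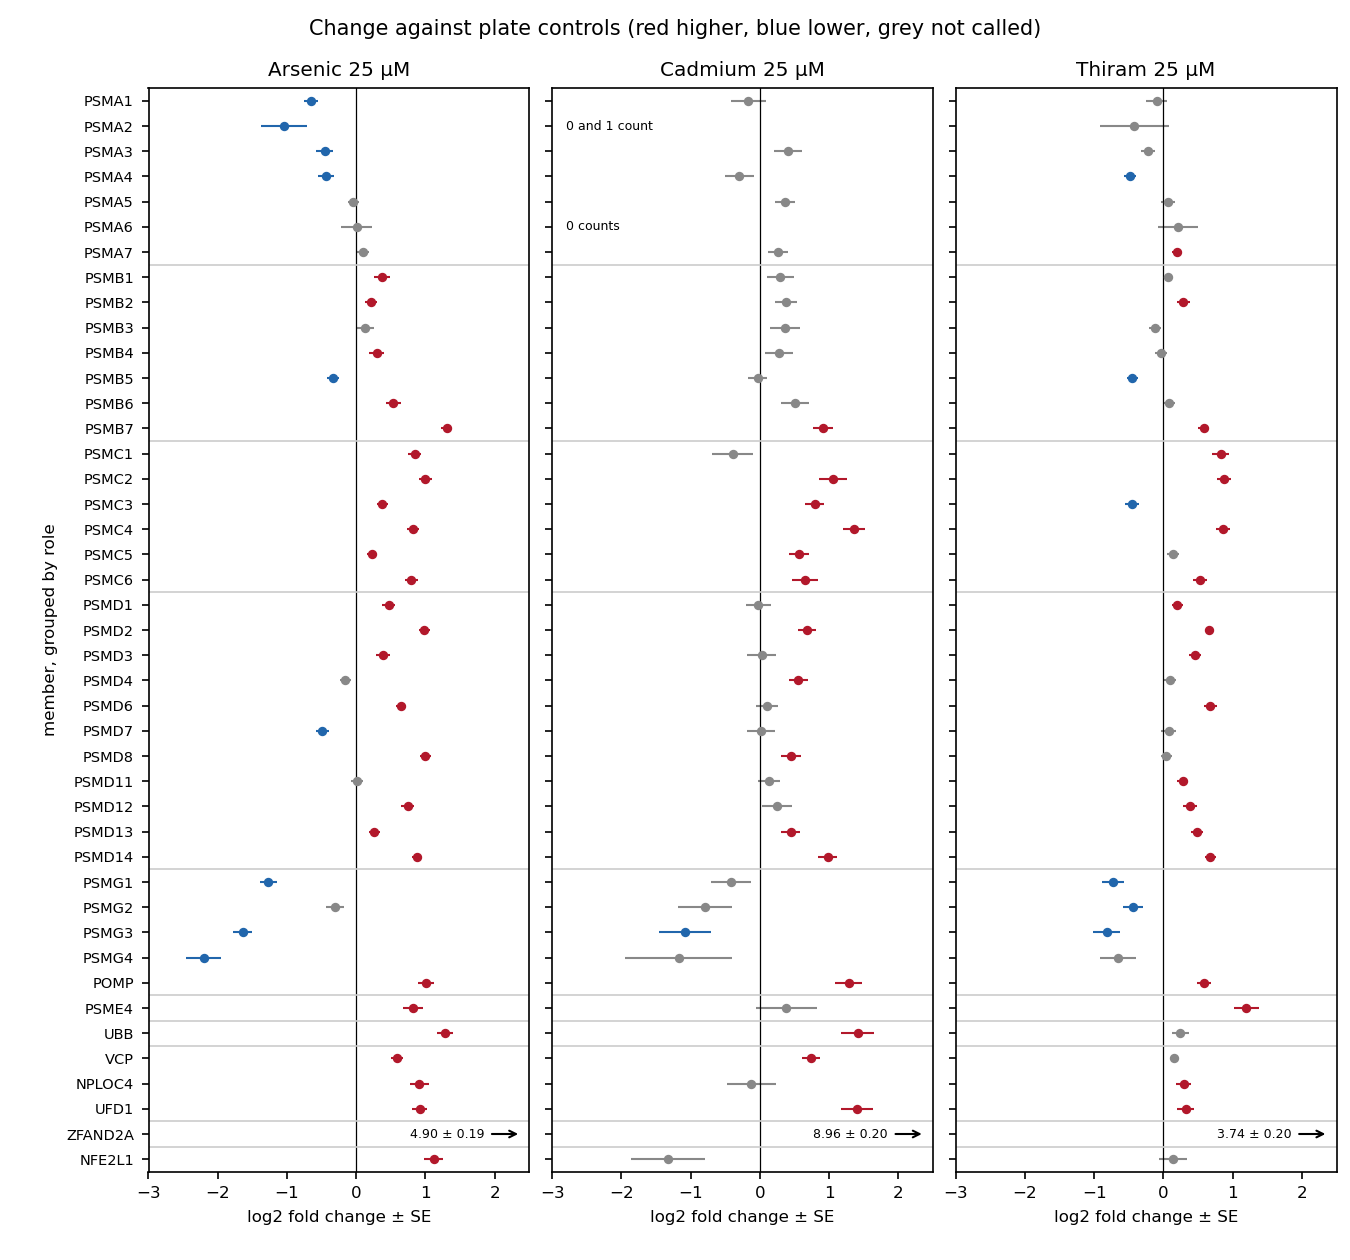
Log2 fold change with its standard error for each member (rows, by role) at 25 µM of arsenic (4 wells), cadmium (2) and thiram (4) against plate controls, with red for higher, blue for lower and grey for not called. ZFAND2A is off the axis and printed as a value. The PSMC and PSMD rows lie mostly right of 0 and the PSMG rows left of 0, with POMP on the right.

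With cadmium at 25 µM, measured in 2 shallow libraries, 16 members were higher and 1 lower. Of all genes tested, 5.67% were higher and 5.38% lower, and among well-expressed genes, 9.65% were higher and 17.5% lower. The median log2 fold change was 0.36 over the members, -1.42 over all genes and -0.38 over well-expressed genes. Over the alternatives the member median was 0.17 (with the library set aside put back) to 0.53 (RLE scaling). The median of all genes was -2.36 (without replicate 1) to 0.07 (DESeq2), at -2.12 without replicate 2 and -0.64 with the library put back, and the member median was 0.23 without replicate 2. ZFAND2A, UBB, POMP, PSMB7 and most 19S ATPases were among those higher. ZFAND2A reached 3660 and 3860 CPM, 496-fold the control level of 0.315 to 10.5 CPM (8.96 ± 0.20, adjusted p = 1.9e-59).

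UBB stood at 281 and 300 CPM with cadmium against 74.7 to 143 CPM (1.41 ± 0.24, adjusted p = 2.4e-06). UFD1 was at 190 and 200 CPM against 41.3 to 97.7 CPM (1.4 ± 0.23, adjusted p = 1.4e-06), and VCP at 1020 and 1060 CPM against 543 to 733 CPM (0.74 ± 0.13, adjusted p = 8.1e-06). All 3 genes were above every control in both libraries. The other p97 gene, NPLOC4, was at 57.4 and 131 CPM against 88.2 to 147 CPM and did not pass the test.

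In the 19S particle 5 of 6 ATPases and 5 of 11 other subunits were higher with cadmium and 0 were lower. PSMC4 was at 339 and 358 CPM against 113 to 186 CPM (1.36 ± 0.16, adjusted p = 7.0e-11), PSMC2 at 180 and 269 CPM against 84.6 to 142 CPM (1.05 ± 0.20, adjusted p = 5.3e-05) and PSMC3 at 410 and 472 CPM against 210 to 312 CPM (0.79 ± 0.14, adjusted p = 6.4e-06). PSMD14, the deubiquitinase, was at 382 and 458 CPM against 190 to 272 CPM (0.98 ± 0.13, adjusted p = 8.6e-09). These 4 genes were above every control in both libraries. The smallest called rises were those of PSMD13 (0.45 ± 0.14), PSMD8 (0.45 ± 0.14) and PSMD4, the ubiquitin receptor (0.56 ± 0.14), whose wells stood at 229 and 433 CPM and whose change was 0.03 without replicate 2. In the 20S core only PSMB7 passed the test, at 384 and 420 CPM against 146 to 262 CPM (0.91 ± 0.15, adjusted p = 1.5e-06).

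POMP was at 367 and 412 CPM with cadmium against 101 to 223 CPM (1.28 ± 0.20, adjusted p = 3.0e-07). PSMG3 was at 18.8 and 39.2 CPM against 40.3 to 73.1 CPM (-1.08 ± 0.38, adjusted p = 0.047), a call that held in 5 of 13 alternatives. PSME4 was at 41.4 and 56 CPM against 27.9 to 60.3 CPM and did not pass the test. NFE2L1 was at 4.20 and 37.7 CPM against 37.5 to 68.6 CPM (-1.32 ± 0.54, adjusted p = 0.11), so 1 library lay just inside the control range and the other far below it. Chosen after their values were seen, PSMA6 had 0 counts in both cadmium libraries, where 3 counts over the group come to 1.99 CPM, against 0.315 to 25.1 CPM (median 13.4) in controls, and PSMA2 had 0 and 1 count.

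The cadmium counts differed between fits. DESeq2 differs from the main fit in its test as well as its scaling, and the part of each was not tested. Scaling by median ratios (RLE) gave 20 members higher and 0 lower, where 6.57% and 4.00% of all genes were. DESeq2 gave 25 higher and 4 lower, where 11.5% and 15.5% of all genes were. Over all called genes the share that was higher was 51.3%, with RLE 62.2% and with DESeq2 42.6%. The median of all genes was 0.14 with RLE and 0.00 with TMM for arsenic, and -1.25 and -1.42 for cadmium, while the median of the members was 0.51 and 0.38, and 0.53 and 0.36. Without replicate 1 or replicate 2, 13 and 11 members were higher and 0 and 1 lower. These fits have 1 cadmium library at 25 µM, which is assumed to vary like the other groups. With the library set aside put back, 15 were higher and 0 lower, where 5.05% and 5.13% of all genes were.

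**Figure D3:**
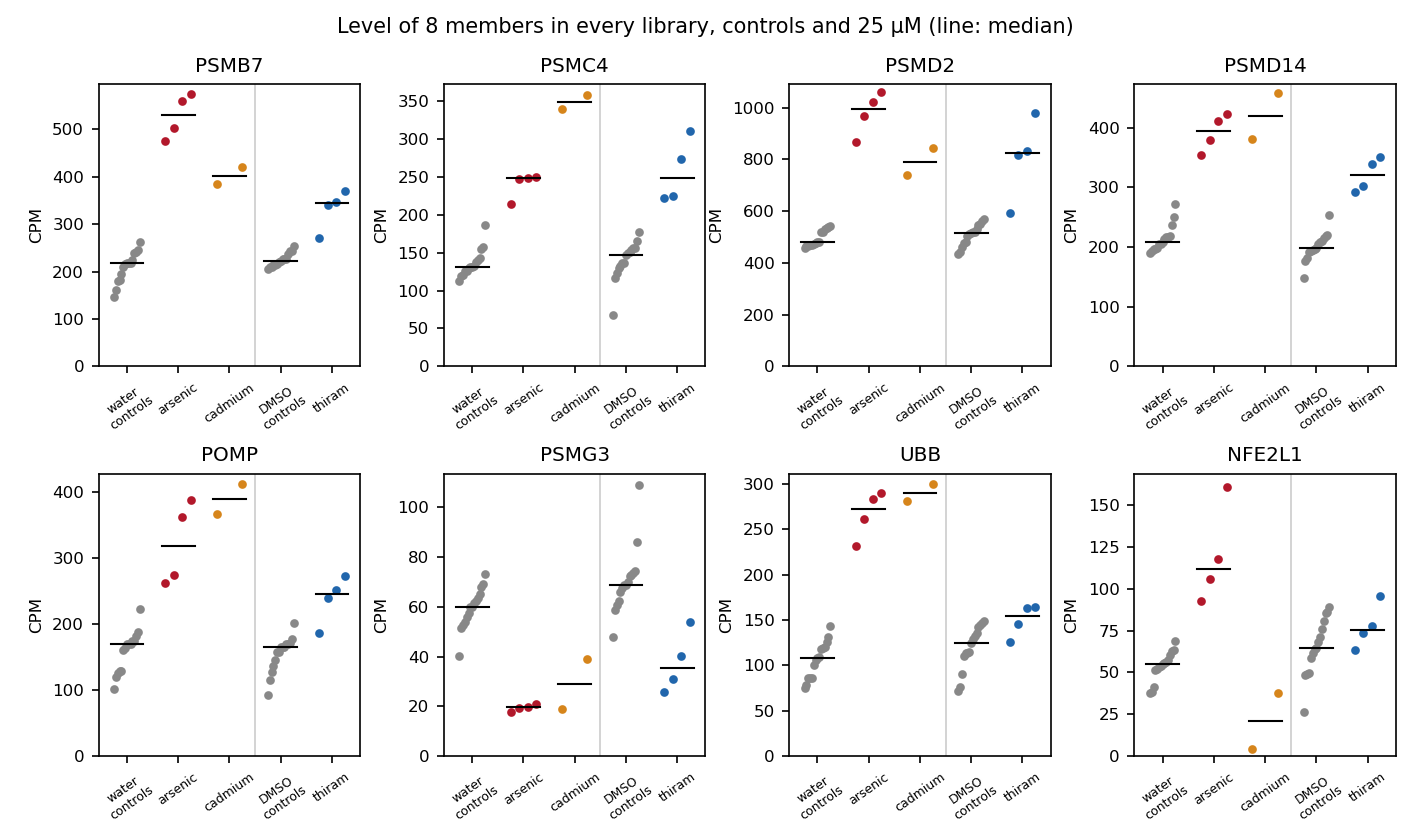
CPM (linear axis from 0) of 8 members in every library of the 15 water controls, arsenic (4 wells) and cadmium (2), and of the 15 DMSO controls and thiram (4) on another plate. Points are wells and lines are medians. PSMB7 with arsenic (475 to 574 CPM) and cadmium (384 and 420 CPM) lies above all controls, and PSMG3 with arsenic lies below them.

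With thiram at 25 µM, 20 members were higher and 6 lower. Of all genes tested on its plate 13.7% were higher and 12.2% lower, and among well-expressed genes, which include 40 of the members, 20.4% were higher and 29.6% lower. The median log2 fold change was 0.20 over the members and -0.11 over all genes. Over the alternatives it was 0.10 (without replicate 2) to 0.28 (RLE scaling) over the members and -0.22 (without replicate 1) to 0.00 over all genes. Of the 19S subunits 12 of 17 were higher and 1 lower, while in the 20S core 3 of 14 were higher and 2 lower. ZFAND2A and PSME4 rose most. UBB and NFE2L1 did not pass the test.

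ZFAND2A was at 78.9, 84.5, 134 and 165 CPM with thiram against 3.54 to 12.4 CPM in the 15 controls (3.74 ± 0.20, adjusted p = 1.1e-31), a 13.4-fold rise. PSME4 was at 53.8, 64.8, 65.9 and 72.9 CPM against 11.3 to 44.2 CPM (1.2 ± 0.18, adjusted p = 3.1e-08). Neither overlapped its controls. UBB was at 126, 146, 163 and 164 CPM against 72.1 to 149 CPM (0.24 ± 0.12, adjusted p = 0.15). NFE2L1 was at 63.4, 73.3, 77.8 and 95.8 CPM against 26.3 to 89.3 CPM (0.14 ± 0.20, adjusted p = 0.68), and VCP at 629, 737, 760 and 825 CPM against 611 to 723 CPM (0.15 ± 0.06, adjusted p = 0.063). All 3 overlapped their controls. The cofactors of VCP passed the test, UFD1 (0.32 ± 0.12, adjusted p = 0.041) and NPLOC4 (0.29 ± 0.11, adjusted p = 0.035), and these calls held in 7 and 8 of 13 alternatives.

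PSMC2 was at 150, 168, 199 and 202 CPM with thiram against 78.7 to 126 CPM (0.87 ± 0.11, adjusted p = 1.8e-11). PSMC4 was at 222, 225, 273 and 311 CPM against 67.6 to 177 CPM (0.86 ± 0.10, adjusted p = 2.7e-12), and PSMC1 at 103, 110, 118 and 130 CPM against 49.7 to 79.8 CPM (0.83 ± 0.12, adjusted p = 1.1e-08). In all 3 ATPases the wells lay above every control. PSMC3, another ATPase of the same ring, was lower, at 140, 162, 257 and 282 CPM against 193 to 364 CPM (-0.45 ± 0.10, adjusted p = 2.6e-04). Its change was -0.24 within the low-numbered libraries, where it did not pass the test, and -0.81 within the high-numbered ones. The smallest called rises in the particle were those of the lid subunit PSMD11 (0.28 ± 0.08) and the scaffold PSMD1 (0.20 ± 0.08), which held in 7 and 5 of 13 alternatives.

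In the 20S core PSMB7 was at 271, 341, 346 and 369 CPM with thiram against 205 to 253 CPM (0.58 ± 0.08, adjusted p = 6.1e-09), above every control. PSMB2 (0.29 ± 0.09, adjusted p = 0.0085) and PSMA7 (0.20 ± 0.07, adjusted p = 0.034) were higher by less. PSMA4 was at 173, 190, 194 and 202 CPM against 231 to 311 CPM (-0.49 ± 0.09, adjusted p = 4.2e-06), below every control. PSMB5 was at 241, 292, 320 and 402 CPM against 357 to 505 CPM (-0.45 ± 0.09, adjusted p = 1.2e-05), with overlap.

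Among the assembly factors, POMP was at 187, 239, 251 and 273 CPM with thiram against 93 to 201 CPM (0.58 ± 0.10, adjusted p = 1.5e-06). PSMG3 was at 25.7, 30.9, 40.1 and 53.7 CPM against 47.9 to 109 CPM (-0.82 ± 0.19, adjusted p = 3.1e-04), PSMG1 at 35.3, 41, 58.1 and 58.1 CPM against 64 to 107 CPM (-0.73 ± 0.16, adjusted p = 1.2e-04) and PSMG2 at 44.3, 56.7, 61 and 71.6 CPM against 60.9 to 95.6 CPM (-0.44 ± 0.14, adjusted p = 0.013). Only PSMG1 of these 4 lay clear of its controls. Of the 26 thiram calls 14 held in all 13 alternatives. Within the low-numbered libraries 16 members were higher and 5 lower, where 8.56% and 7.41% of all genes were. Within the high-numbered ones 12 were higher and 5 lower, where 7.79% and 7.64% of all genes were.

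Arsenic and thiram were measured on different plates against different controls. Of the 27 members higher with arsenic and the 20 higher with thiram, 18 were shared (66.7% and 90%). Of the 9 and 6 lower members, 4 were shared (44.4% and 66.7%): PSMA4, PSMB5, PSMG1 and PSMG3. PSMC3 was higher with arsenic and lower with thiram. Over the 20589 genes tested on both plates, the shared genes were 40.8% of those higher with arsenic and 65.2% of those higher with thiram, and 45.9% and 78.2% of the lower ones. Arsenic and cadmium share their controls, so no overlap is given for them.

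The difference between the thiram change and the arsenic change at 25 µM was tested in a joint fit. It was negative, that is lower with thiram, for 13 members and positive for 4, where 4.92% of all genes were lower and 5.84% higher. UBB (-1.05 ± 0.18, adjusted p = 1.2e-06), ZFAND2A (-1.18 ± 0.30, adjusted p = 0.0022) and NFE2L1 (-0.99 ± 0.24, adjusted p = 0.0011) were lower with thiram. All 3 p97 genes were lower in the difference, by -0.67 for NPLOC4, -0.63 for UFD1 and -0.48 for VCP. Among the subunits, PSMD8 (-0.99 ± 0.11), PSMC3 (-0.87 ± 0.13) and PSMB7 (-0.76 ± 0.12) had the most negative differences. The chaperones PSMG4 (1.52 ± 0.40) and PSMG3 (0.77 ± 0.24) had the most positive ones, being further down with arsenic.

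Arsenic and cadmium at 25 µM were compared directly on their plate. Between them 4 members were higher with arsenic and 4 lower, where 4.24% and 4.32% of all genes were. NFE2L1 (2.44 ± 0.50, adjusted p = 1.8e-04), PSMC1 (1.24 ± 0.29, adjusted p = 0.0016), PSMD8 (0.55 ± 0.15) and PSMD6 (0.54 ± 0.16) were higher with arsenic. ZFAND2A (-4.05 ± 0.25, adjusted p = 3.8e-25), PSMA3 (-0.86 ± 0.22), PSMD4 (-0.72 ± 0.15) and PSMC4 (-0.54 ± 0.17) were higher with cadmium. NFE2L1 was at 92.6 to 161 CPM with arsenic and 4.20 and 37.7 CPM with cadmium, so its groups did not overlap. Without replicate 2 of the dosed groups, 0 members were higher with arsenic and 1 lower by edgeR, and without replicate 1 the counts were 2 and 5, in both cases with 1 cadmium library.

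Across the 4 doses, without the controls, 23 members rose and 8 fell with arsenic, where 14.2% and 15.6% of all genes did. With cadmium 14 rose and 1 fell (4.18% and 4.78%), and with thiram 13 rose and 6 fell (9.24% and 9.26%). The slopes of ZFAND2A, in log2 per 10-fold dose, were 1.5 ± 0.09 with arsenic, 3.13 ± 0.11 with cadmium and 1.15 ± 0.08 with thiram. The slope of UBB was 0.38 ± 0.05 with arsenic and 0.47 ± 0.08 with cadmium. PSMG3 fell with all 3, with slopes of -0.52, -0.36 and -0.24.

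The same genes were also read at 2.5 µM. The median of UBB was 106 CPM with arsenic, 115 CPM with cadmium and 138 CPM with thiram, that of PSMC4 132, 138 and 172 CPM, and that of PSMG3 63.1, 61.2 and 64.2 CPM, each inside the range of the plate's controls. ZFAND2A had medians above the control range with cadmium (79.4 CPM), thiram (15.4 CPM) and arsenic (11.5 CPM). With cadmium it was at 108 and 127 CPM in the low-numbered wells and 13.9 and 50.9 CPM in the high-numbered wells, above all controls (3.27 ± 0.20, adjusted p = 1.9e-24). It was the only member called in that group, where 0.206% of all genes were higher. With thiram at 2.5 µM ZFAND2A was at 8.26, 10.5, 20.2 and 25.6 CPM against 3.54 to 12.4 CPM and did not pass the test (0.86 ± 0.25, adjusted p = 0.73). With arsenic at 2.5 µM it was at 6.21 to 13.9 CPM (0.40 ± 0.30, adjusted p = 0.68).

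**Figure D4:**
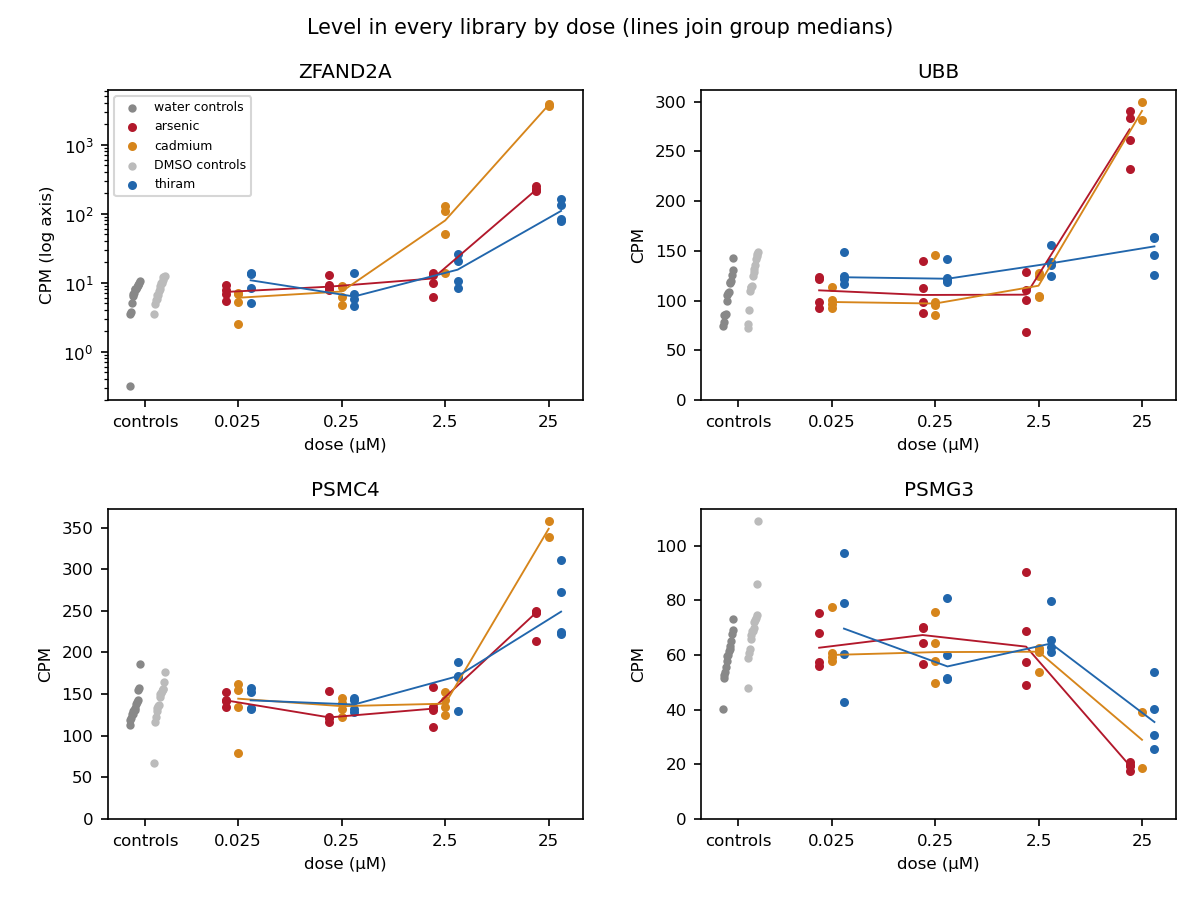
CPM of ZFAND2A (log axis), UBB, PSMC4 and PSMG3 (linear axes from 0) in every library of the controls and of the 4 doses (µM) of arsenic, cadmium and thiram. Points are wells and lines join group medians. At 2.5 µM the median of ZFAND2A lies above the control range with cadmium (79.4 CPM), thiram (15.4 CPM) and arsenic (11.5 CPM), while the medians of the other genes shown lie inside it.

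For copper, lead and mercury, the other metals of the plate, 0 members were called at 25 µM by edgeR, with 6, 9 and 0 members at an unadjusted p under 0.05, and DESeq2 called 0 for copper and 0 for lead. At an unadjusted p under 0.05 were 3776, 3569 and 1059 of all 24295 genes. By adjusted p 5.09%, 3.85% and 0.0617% of all genes were called in either direction. ZFAND2A differed from controls by 0.13 ± 0.28 with copper, 0.23 ± 0.27 with lead and 0.17 ± 0.28 with mercury. With copper at 2.5 µM NFE2L1 was lower, at 30.2, 35.4, 38.5 and 40.0 CPM against 37.5 to 68.6 CPM (-0.60 ± 0.15, adjusted p = 0.0064), and PSMD14 higher, at 238, 261, 263 and 282 CPM against 190 to 272 CPM (0.29 ± 0.08, adjusted p = 0.018). Both overlapped their controls, and 1.6% of all genes were lower and 1.41% higher there. At 25 µM of copper NFE2L1 was at 39.3, 46.7, 46.7 and 53.8 CPM and did not pass the test (-0.22 ± 0.14, adjusted p = 0.50).

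With DDE at 25 µM, PSMG3 and PSMD7 were called as higher and NFE2L1 as lower, where 3.56% of all genes were higher and 4.22% lower. PSMG3 was at 37.4, 57.7, 64.5 and 70.8 CPM against 24.6 to 45.6 CPM in the 8 controls (0.67 ± 0.20, adjusted p = 0.042), and PSMD7 at 73.6, 85, 87.9 and 104 CPM against 43.2 to 80.6 CPM (0.47 ± 0.15, adjusted p = 0.0497), both with overlap. NFE2L1 was at 115, 125, 146 and 217 CPM against 227 to 464 CPM (-1.1 ± 0.29, adjusted p = 0.033), below every control. Its log2 fold change was -0.94 at 2.5 µM, -1.09 at 0.25 µM and -0.75 at 0.025 µM, where it did not pass the test, and its slope with dose was -0.09 ± 0.10. The list as a whole lay above 0 at every DDE dose. From 25 µM down, 34, 36, 36 and 35 of 43 members were above 0, with medians of 0.17, 0.24, 0.21 and 0.19. The medians over all genes were -0.03 to -0.01. Members at an unadjusted p under 0.05 by the edgeR test were 12, 14, 16 and 11 of 43. Of all 13921 genes tested, 3983, 3239, 3655 and 2346 were at that threshold. By the labels the DDE wells held DMSO and the controls water, so solvent and chemical cannot be told apart. Without replicate 2 or replicate 3, 0 members were called by edgeR.

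The water controls of the PFDA plate were compared with its DMSO controls. NFE2L1 was at 61.7, 68.7, 73.4 and 74.6 CPM in water and 80.5 to 123 CPM in DMSO (-0.55 ± 0.15, adjusted p = 0.02), so it was lower in water without overlap. PSMB5 (0.25 ± 0.06, adjusted p = 0.0072), PSMB2 (0.24 ± 0.08, adjusted p = 0.041) and PSMG3 (0.33 ± 0.10, adjusted p = 0.039) were higher in water. Of all genes 2.13% were higher and 1.95% lower in water. Leaving out each water control in turn left 1 to 3 calls.

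With PFDA at 0.25 µM, PSMB1, POMP and UBB were called as higher, where 0.519% of all genes were. Replicate 1 stood apart in all 3: PSMB1 was at 676 CPM there and at 349, 344 and 299 CPM in the others, against 255 to 366 CPM in the DMSO controls. POMP was at 379 CPM there and at 160, 145 and 147 CPM in the others, against 116 to 194 CPM. UBB was at 259 CPM there and at 131, 131 and 135 CPM in the others, against 101 to 168 CPM. Without replicate 1 the log2 fold changes went from 0.40, 0.51 and 0.39 to 0.07, 0.07 and 0.09. At 25 µM of PFDA 0 members were called by edgeR, with 7 at an unadjusted p under 0.05, as were 1934 of all 19468 genes.

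With MPB at 25 µM, NPLOC4 was called as higher, at 150, 163, 170 and 212 CPM against 119 to 154 CPM (0.32 ± 0.08, adjusted p = 0.01), and PSMA7 and PSMB1 as lower. PSMA7 was at 452, 475, 526 and 608 CPM against 513 to 733 CPM (-0.28 ± 0.07, adjusted p = 0.024) and PSMB1 at 249, 260, 271 and 330 CPM against 282 to 386 CPM (-0.28 ± 0.07, adjusted p = 0.03). Of all genes 0.43% were higher and 0.946% lower, and each gene's groups overlapped. Without replicate 1, 0 members were called by edgeR. With MPB at 2.5 µM, PSMB3 was called as lower, at 217, 231, 249 and 298 CPM against 251 to 375 CPM (-0.31 ± 0.08, adjusted p = 0.041), where 0.65% of all genes were.

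In the remaining comparisons edgeR called 0 members. The shares of gene tests called that follow are by adjusted p. At 25 µM these were 16 chemicals, with 0 to 9 members each (median 3) at an unadjusted p under 0.05. The 9 were with lead, where 3569 of all 24295 genes were at that unadjusted threshold. Of all gene tests 0.646% were called, and DESeq2 called 1 member in all. At 2.5 µM they were 18 chemicals, with 0 to 14 members each (median 2) at an unadjusted p under 0.05 and 0.228% of gene tests called. At 0.25 µM they were 20 chemicals (0 to 16 members, median 1, and 0.0492%). DESeq2 called 9 members at 2.5 µM and 8 at 0.25 µM over all 21 chemicals, where edgeR called 4 and 3. At 0.025 µM all 21 chemicals had 0 calls by edgeR (0 to 11 members at an unadjusted p under 0.05, median 2, and 0.0104% of gene tests called), and DESeq2 called 1. Dose trends were called for 0 members in 18 chemicals (0 to 8 members, median 2, and 0.183%), and DESeq2 called 1. The highest member counts at 2.5, 0.25 and 0.025 µM were with DDE. There 3239, 3655 and 2346 of all 13921 genes were at an unadjusted p under 0.05. The 8 members for a trend were with phenanthrene, where 2208 of all 19468 genes were. A p that misses the threshold does not show that a gene did not change.

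Of the other genes of the pathway 50 were listed. At 25 µM of arsenic 25 were higher and 11 lower (against 23.2% and 18.2% of all genes). With cadmium 9 were higher and 6 lower (against 5.67% and 5.38%), and with thiram 20 were higher and 9 lower (against 13.7% and 12.2%). Furthest up with arsenic was SQSTM1, an autophagy receptor that binds ubiquitin, at 4350 to 5170 CPM against 301 to 396 CPM (3.72 ± 0.08, adjusted p = 3.4e-62), followed by MAFK (2.7 ± 0.35) and MAFG (2.11 ± 0.15), small MAF partners of NFE2L1.

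Lowest with arsenic were the immunoproteasome subunits PSMB9 (-1.28 ± 0.50) and PSMB8 (-1.18 ± 0.19) and UCHL5, a proteasome deubiquitinase (-1.03 ± 0.12). With thiram MAFK (2.86 ± 0.42), MAFG (2.35 ± 0.15) and SQSTM1 (1.88 ± 0.13) were highest, and PSMB8 (-1.21 ± 0.17) and the PA28 subunits PSME2 (-0.99 ± 0.12) and PSME1 (-0.98 ± 0.12) lowest. With cadmium SQSTM1 (2.96 ± 0.11) and MAFF (2.69 ± 0.25) were highest, and the proteasome-bound ECPAS (-3.0 ± 0.66), the 19S chaperone PSMD5 (-2.23 ± 0.43) and NFE2L2 (-1.22 ± 0.26) lowest. PSMD5 was also lower with arsenic (-0.65 ± 0.12) and thiram (-0.56 ± 0.17). USP14, another proteasome deubiquitinase, did not pass the test with any of the 3.

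At 25 µM 5 of these 50 genes were called with copper and 4 with lead, where 5.09% and 3.85% of all genes were. SQSTM1, named here after its values were seen, was higher by 1.28 ± 0.08 with copper and 1.31 ± 0.08 with lead.

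Some counts cannot be assigned to a single gene with certainty. In the GENCODE v29 annotation of GRCh38, 20 members share exon bases with another gene, 10 of them over more than 10% of their exon bases, and the strand handling of the counting is not given in the sources used here. PSMC1 shares 75.8% with NRDE2 and UBB 28.4% with an antisense transcript, both on the opposite strand, and PSMD7 shares 30.7%. PSMA1, PSMA2 and PSMA6 share bases with another gene on the same strand.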

How the data were processed

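The deposited files, 1 for each library, hold raw counts of reads by gene symbol, whole numbers without normalization, as judged from the values. Per the submitters' processing notes, reads passed through FastQC, MultiQC, STAR and featureCounts with GRCh38. Versions, annotation, strand setting and gene filter were not given in the sources used here. UFD1L of the list is UFD1 in the files.

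Counts were tested with edgeR 4.0.16 (R 4.3.3; limma 3.58.1 alongside): filterByExpr by group (minimum count 10, minimum total 15), TMM scaling, the quasi-likelihood F-test with dispersion from the top 5% of genes, each plate fitted alone, and Benjamini-Hochberg adjustment over all genes tested, with calls at an adjusted p under 0.05. The trend contrast used the 4 doses without controls. The thiram and arsenic changes were compared in a joint fit of both plates. A fold or slope is given as log2 with a standard error (SE). This SE was worked back from the test, as the absolute log2 value divided by the square root of F. Alternatives were RLE scaling, DESeq2 1.42.0, no filter, a minimum count of 50, libraries thinned to equal depth, a term for the low-numbered and high-numbered libraries (dosed replicates 1 and 2 with the low-numbered controls), fits within each set, only the compared groups, and each replicate left out. Leaving out each water control was added after seeing the data.

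The members and gene lists were chosen with earlier results of these data known. Named members were the 3 highest and 3 lowest called in each of 4 role classes at 25 µM, plus NFE2L1, UBB, ZFAND2A, VCP and PSME4 throughout. Others were named outside that rule, among them PSMC1, PSMC4 and PSMB5 with arsenic and PSMC3 with cadmium. In comparisons with 5 or fewer calls every called member was named. Replicate numbers were not used to pair the wells. Correlations of deviations between same-numbered wells were weak, with lowest values of -0.03 to 0.05 by chemical. The highest value was 0.13, with mercury. The medians were -0.00 to 0.07 for same-numbered and -0.06 to 0.00 for other wells. The same-numbered median was above the other in every chemical checked but PFNA. All same-numbered pairs were above 0 with copper, lead, mercury and PFOA, so weak pairing remains possible. The fits were tested on simulated data with the depths of the metal plate and a spread that was set, not estimated. At 25 µM, 100 genes were changed by 1 log2 unit and 100 by 0.5. With arsenic 100% and 52% of them were recovered, and with cadmium 25% and 1%. In the simulated cadmium group 26 genes were called, against 2684 in the data, so these shares do not give the recovery in the data. A cadmium gene that missed the threshold may still have changed. Depth was 1.43 M to 25.8 M counts per library. The cadmium library set aside carries a barcode of another plate. A result for 1 gene of the wider pathway list is not reported here.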

Additional observations from a re-analysis of the deposited data

Results flagged for a closer look

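Among the 67 groups of 4 to 10 libraries whose values are given well by well, 4 held a well far from the others by the gap to its neighbour, and chance alone gives about 1 in 20 such groups. Of these, 3 were the same well of PFDA at 0.25 µM, replicate 1, with PSMB1 at 676 CPM, POMP at 379 CPM and UBB at 259 CPM. The fourth was VCP at 1090 CPM in an arsenic well at 25 µM, where the others were at 877, 890 and 910 CPM and the controls at 543 to 733 CPM.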

How the results depend on the processing

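For arsenic at 25 µM the counts of higher and lower members stayed within 1.5 times of 27 and 9 under every alternative tried, and for thiram the count of higher members stayed within 1.5 times of 20 except within the high-numbered libraries (12), at 15 to 16 without each replicate. Of single-gene values under an alternative, 2333 kept direction and call, 191 lost the call, 125 gained it and 113 changed sign without passing the test either way, among them NFE2L1 with thiram (-0.01 to 0.52) and NPLOC4 with cadmium (-0.85 to 0.32). Values past the threshold in either fit that changed sign were 0. Arsenic's 8 falling trends were 5 with DESeq2, RLE scaling and within either numbered set, 3 in thinned libraries, and 5 to 6 without each replicate. Cadmium at 25 µM had 25 members higher and 4 lower with DESeq2, 5 lower in thinned libraries, and 0 lower with RLE scaling, no filter, the term for numbered sets, the library set aside put back or the low-numbered set alone, and 0 to 1 lower without each replicate. Its trends were 24 rising and 4 falling with DESeq2, 22 and 4 in thinned libraries, and 0 falling with RLE scaling, no filter, the term for numbered sets, the replicate block, the library put back or the low-numbered set alone, and 0 to 1 without each replicate. Thiram's trends were 21 rising with DESeq2, and 2 falling within the low-numbered set and 3 to 6 without each replicate. Copper at 25 µM called 1 member in a fit of its own groups, 3 with the term for numbered sets and 4 within the low-numbered set. Lead called 3 and 3 in the last 2 of these, and 0 to 1 without each replicate. MPB at 25 µM called 1 in a fit of its own groups, 0 within the high-numbered set and 0 to 4 without each replicate. DDE called 1 in a fit of its own groups and 0 to 4 without each replicate. The other 14 chemicals at 25 µM called 2 members in fits of their own groups, 1 with DESeq2, 2 with no filter, 2 with the term for numbered sets, and 1 and 6 within the low-numbered and high-numbered sets. At 2.5 µM the 4 calls were 9 with DESeq2, 17 with the term, 12 and 19 within the sets and 2 to 11 without each replicate. At 0.25 µM the 3 calls were 1 in fits of their own groups, 8 with DESeq2, 5 with a minimum count of 50, 5 with no filter, 7 with the term, 13 and 1 within the sets and 2 to 9 without each replicate. At 0.025 µM the 0 calls were 1 with DESeq2, 4 and 5 within the sets and 0 to 7 without each replicate. Trends of the other 18 chemicals, 0 in all, were 1 with DESeq2, 1 with no filter, 3 with the term, 3 with the replicate block, and 6 and 4 within the sets. Members higher and lower with arsenic than cadmium were 9 and 12 with DESeq2, 10 and 9 in thinned libraries, 8 and 8 with the library put back, 7 lower with a minimum count of 50, and 0 to 5 higher and 1 to 5 lower without each replicate. Of the differences between thiram and arsenic, 1 to 3 were positive without each replicate. Between water and DMSO controls 1 was called with no filter, 0 and 2 within the sets, 2 to 4 without each numbered replicate and 1 to 3 without each water control. Where a count changed, the cause was not tested. With cadmium at 25 µM, 11.5% of all genes were higher and 15.5% lower with DESeq2. In thinned libraries these shares were 19.6% and 30.9%. Same-numbered wells were only weakly correlated, and why a call was lost under the block was not tested. Cadmium at 25 µM has 2 libraries with 1.43 M and 1.45 M counts, and leaving out 1 leaves a lone library that is assumed to vary like the other groups.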
